A study of Mus musculus with 2 samples.

Results

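Genes of the nuclear pore complex and of nuclear transport were examined in the mouse lens at stage E12.5. They were chosen by gene symbol, with earlier results of these data known. The symbols covered the nucleoporins numbered as Nup or Nupl, Pom121, Ndc1 and Tpr. They also covered the importins (Ipo, Kpna, Kpnb1), the transportins (Tnpo), the exportins (Xpo, Xpot, Cse1l), Ran and the numbered Ranbp genes. Of 19057 genes named on the array, 56 matched, with 102 of 34885 named probes. No named probe carried the symbol Tpr, and that gene was not analysed here. The study set lens epithelium against lens fibers, each wild type and of stage E12.5, with 1 array of total RNA per tissue. The epithelium is the proliferating cell sheet at the front of the lens, and the fibers are the elongating cells behind it that leave the cell cycle. Strain, number of embryos and the way the tissues were separated are not stated in the labels or the design text.

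The nuclear pore complex is a large ring of nucleoporins set into the nuclear envelope. Scaffold rings (the Y complex and the inner ring) are anchored by membrane-spanning nucleoporins, a central channel is lined by proteins with phenylalanine-glycine repeats, and filaments reach into the cytoplasm and a basket into the nucleus. Importins and transportins carry cargo in, exportins carry it out, and the small GTPase Ran sets the direction. In lens fibers the nuclei are degraded later in maturation.

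Values are normalized intensities on a linear scale. A probe counted as measured when it lay above a floor, 44.6 for epithelium and 32.1 for fibers, which is the 95th percentile of 1580 probes for receptor and keratin-associated genes taken to be silent in lens. For a gene above both floors the log2 of the fibers value over the epithelium value is given. A gene above 1 floor has a bound against the other floor, written "at least", and where that bound was under 1 no direction is given. With 1 array per tissue there is no replicate, no test and no p-value, so precision is limited by the array number. As a measure of spread between probes on the same 2 arrays, and not between samples, log2 ratios had an SD per probe of 0.72. It is the SD of the difference between the 2 brightest probes of the same gene (459 genes), divided by the square root of 2. The difference between 2 probes of a gene therefore spread more widely than 0.72. In addition, 32 silent probes above both floors ran from -2.30 to 2.37 with an SD of 0.84.

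The tissue labels were checked against lens markers. All 10 fiber markers with a probe passed 2-fold in fibers, led by Crybb1 (18.5-fold) and Crygc (13.5-fold). All 5 measured epithelium markers passed 2-fold in epithelium, among them Gja1 (at least 12.4-fold), while Foxe3 and Npnt lay below both floors. Crystallins also gave signal on the epithelium array, for example 1512 for Cryba4 against 12383 in fibers. Of markers for 6 other cell types, 8 of 32 genes with a probe were measured. The measured genes were Tfap2b and Sfrp2, given with the pore genes, Krt5 (48.8 in epithelium and 65.1 in fibers), Tek (6.92 and 83.4), Hbb-y (121 and 124), Hba-a1 (14.8 and 76.7), Aif1 (54.7 and 34.2) and Csf1r (29.9 and 36.2). The other 24 genes, among them Foxc1, Rax, Trp63, Pecam1, Alas2 and Ptprc, were below both floors, as Foxe3 was.

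Of the 56 members, 33 (58.9%) were above at least 1 floor and 16 (28.6%) above both, against 33.9% and 15.7% of all named genes. Of the 33, a difference of 2-fold or more in favour of epithelium was seen for 6, and in favour of fibers for 3. The shares were 18.2% and 9.09%, and the background over 6451 measured genes was 18.5% and 15.5%, so the epithelium share was close to its background and the fibers share below it. Under the 9 alternatives that change the values, the epithelium share lay above its background in 7 (with loess 18.2% against 13.1%, with a common floor 22.2% against 15.8%) and the fibers share in 1. The median log2 ratio of the 33 was 0.00, as over all measured genes, and that of the 16 above both floors was -0.06, against -0.19 for all 2986 such genes. By role, all 6 genes higher in epithelium were nucleoporins and all 3 higher in fibers were import receptors, while the other 24 measured members were under 2-fold. With the second brightest probe this split was not seen: of 3 measured pore genes 1 passed 2-fold in each direction, and of 3 import receptors 1 passed it, toward epithelium. With scaling to housekeeping genes, which shifted fibers down by 0.47 on the log2 scale, 10 members were higher in epithelium and 1 in fibers, with a background of 34.1% and 8.11%. In bulk tissue, fewer cells of a type and less RNA per cell cannot be told apart.

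**Figure D1:**
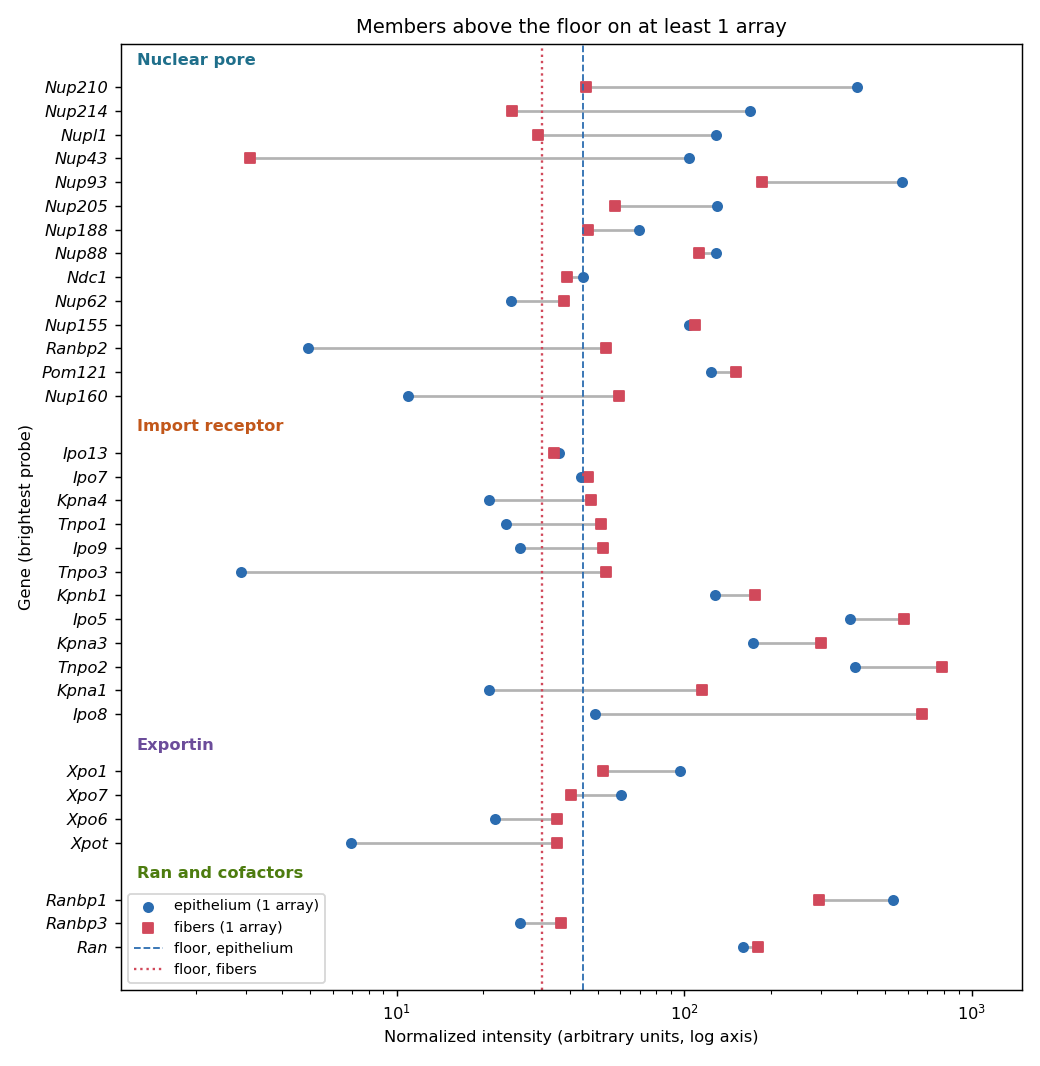
Normalized intensity of the 33 members above at least 1 floor, on a log axis, with 1 row per gene. Circles are the epithelium array, squares the fibers array and vertical lines the 2 floors. Nup210 runs from 399 in epithelium down to 45.4 in fibers, and Ipo8 from 48.8 up to 672. There are no error bars because each tissue has 1 array.

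Nup210, Nup205 and Nup93 gave the nucleoporin ratios of 2-fold or more that were above both floors, and Ipo8 gave the import receptor ratio of largest size. Their promoter windows are shown as examples of members with a ratio of 2-fold or more, since a bound gives no ratio. The other 5 members at 2-fold or more are not shown. Each is the 250 bases before the RefSeq start in GRCm38.p6, read in the direction of the gene. For Nup93, with 2 RefSeq starts, the upstream one was taken. Capitals mark matches, on either strand, to any of 6 motifs: E2F (TTTNNCGC), NRF1 (GCNTGCGC), ETS (CCGGAAG), the CCAAT box (CCAAT), the GC box (GGGCGG) and the TATA box (TATAAA). The Nup210 window lies at chr6:91116827-91117076 on the minus strand, that of Nup205 at chr6:35177366-35177615 on the plus strand, that of Nup93 at chr8:94214314-94214563 on the plus strand and that of Ipo8 at chr6:148831468-148831717 on the minus strand.
Nup210: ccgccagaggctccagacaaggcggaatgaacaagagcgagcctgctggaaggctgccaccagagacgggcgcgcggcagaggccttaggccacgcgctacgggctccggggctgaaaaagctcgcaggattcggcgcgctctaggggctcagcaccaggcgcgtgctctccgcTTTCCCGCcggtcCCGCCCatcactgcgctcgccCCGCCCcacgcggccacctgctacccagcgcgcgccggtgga
Nup205: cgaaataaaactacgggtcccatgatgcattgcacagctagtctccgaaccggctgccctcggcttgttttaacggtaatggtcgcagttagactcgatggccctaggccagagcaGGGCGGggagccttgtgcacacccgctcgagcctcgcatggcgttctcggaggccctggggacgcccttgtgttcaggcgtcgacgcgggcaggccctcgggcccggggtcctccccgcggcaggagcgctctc
Nup93: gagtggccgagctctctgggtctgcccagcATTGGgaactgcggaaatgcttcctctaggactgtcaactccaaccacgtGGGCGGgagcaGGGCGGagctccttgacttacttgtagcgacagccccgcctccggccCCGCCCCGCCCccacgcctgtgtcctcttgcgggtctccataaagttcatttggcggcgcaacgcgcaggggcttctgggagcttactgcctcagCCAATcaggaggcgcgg
Ipo8: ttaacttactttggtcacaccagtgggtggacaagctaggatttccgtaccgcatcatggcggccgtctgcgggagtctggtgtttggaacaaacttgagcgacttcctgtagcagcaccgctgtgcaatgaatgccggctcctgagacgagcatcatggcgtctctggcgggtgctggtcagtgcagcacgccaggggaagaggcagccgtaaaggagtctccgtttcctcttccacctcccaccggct
The capitals in Nup210 are an E2F match and 2 GC boxes, those in Nup205 a GC box, and those in Nup93 CCAAT boxes and GC boxes. The Ipo8 window has no match to these letters, which says only that they do not occur in these 250 bases. G and C made up 71.2% of the Nup210 window, 65.2% of Nup205, 64.4% of Nup93 and 58% of Ipo8.

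A promoter window was found for 45 of the 56 members, 52 windows in all. A GC box was present in 63.5% of the member windows against 32.7% of all 32851 windows, a CCAAT box in 42.3% against 33.8%, an ETS match in 15.4% against 6.91% and an NRF1 match in 21.2% against 8.3%. E2F matches were in 7.69% against 4.28% and TATA boxes in 9.62% against 12.4%. Member windows also held more G and C, a median of 63.8% against 52.4%, and the part of base composition in these shares was not tested. Of the 9 windows of 7 members at 2-fold or more, 1 held an E2F match (Nup210), 2 an NRF1 match (Nup214 and Tnpo2) and none an ETS match. The arrays measure transcripts and say nothing of binding at these sequences.

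Among the pore genes, Nup210 had the lowest log2 ratio. It encodes a membrane-spanning nucleoporin, known for its role in muscle and neural differentiation. Its intensity was 399 in epithelium and 45.4 in fibers, 8.79-fold higher in epithelium (log2 ratio -3.14). The fibers value stood just above the floor of 32.1. Only 17 of the 2986 genes above both floors had a lower ratio, and the ratio lay outside the range of the silent probes. Neither Pom121 nor Ndc1 differed by 2-fold. Pom121, which helps anchor the ring in the envelope, read 124 and 151 (log2 ratio 0.28, and -0.19 when scaled to housekeeping genes). Ndc1, the anchor for the inner ring, read 44.6, which is the floor, in epithelium and 39.3 in fibers and had no direction. Nup210l, a paralogue of Nup210, was below both floors.

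The inner ring, the scaffold that links the membrane to the channel, was the only pore subcomplex with all of its named genes above both floors. Nup93, its linker subunit, read 573 in epithelium and 186 in fibers (3.09-fold higher in epithelium, log2 ratio -1.63). Nup205, a large scaffold partner of Nup93, read 130 and 57.2 (2.27-fold, -1.18), and its paralogue Nup188 read 69.8 and 46.4 (-0.59, and -1.06 when scaled to housekeeping genes). Nup155, another scaffold subunit, read 104 and 109 (0.08, and -0.40 when scaled to housekeeping genes). Thus 3 of the 4 lay below 0, and Nup155 did too when scaled to housekeeping genes. Of all 2986 genes above both floors, 1716 lay below 0, and the median of such genes was -0.67 when scaled to housekeeping genes. The signs therefore do not set the inner ring apart. A second Nup155 probe read 30.9 and 93.0, at least 2.08-fold higher in fibers. Nup35 had no named probe.

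Of the 6 Y complex genes (the outer scaffold) with a Nup symbol, Nup107, Nup133, Nup37 and Nup85 were below both floors. Nup43, a peripheral subunit, read 104 in epithelium and 3.10 in fibers, at least 3.23-fold higher in epithelium. Nup160, a core subunit, read 10.9 and 59.4, a bound of at least 1.33-fold toward fibers. These 2 bounds lay in opposite directions. Sec13 and Seh1l, subunits of the same complex with other symbols, are given with the genes outside the symbol rule.

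In the central channel, Nupl1 (the phenylalanine-glycine nucleoporin p58) read 129 in epithelium and 31.1 in fibers, at least 4.02-fold higher in epithelium. A second Nupl1 probe read 91.0 and 20.0, at least 2.83-fold in the same direction, but the third read 14.8 and 75.0, at least 1.68-fold higher in fibers. With the mean of all Nupl1 probes the log2 value was -0.90. Nup62, the channel partner of Nupl1, read 24.9 and 38.2, with no direction. Nup54 and Nup98 were below both floors.

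On the cytoplasmic face, Nup214, a docking site for exporting complexes, read 169 in epithelium and 25.1 in fibers, at least 5.27-fold higher in epithelium. A second Nup214 probe was below both floors. Nup88, the direct partner of Nup214, read 129 and 112 (log2 ratio -0.20), and a second probe gave -0.37. Ranbp2, the large filament protein that binds Ran, read 4.93 and 53.3, at least 1.20-fold higher in fibers. Nupl2 was below both floors. So were the basket genes Nup153 and Nup50.

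In all, 14 of 24 pore genes were measured. At 2-fold, 6 favoured epithelium and none fibers (42.9% and 0%, median log2 ratio -0.40), against 18.5% and 15.5% of all measured genes. Among pore genes outside the symbol rule, Sec13 and Seh1l were at 2-fold or more toward fibers and Ahctf1 toward epithelium. All 6 members were still at 2-fold or more in epithelium under each of the 4 alternative scalings. Among these, housekeeping scaling gave 7 of 13 pore genes, with a background of 34.1% of all measured genes. With the floor set at the 99th percentile of the silent probes, 3 of 8 remained at 2-fold, with a background of 14.9%. Most measured markers of dividing cells lay in the same direction, but Lig1 of the DNA replication list had a bound of at least 1.48-fold toward fibers. The DNA replication list had 11 measured genes, 8 of them at 2-fold or more in epithelium, led by Mcm5 (at least 24.9-fold) and Mcm4 (11.02-fold) (median log2 ratio -2.15), and their summed intensity over 13 genes was 3938 in epithelium and 487 in fibers. The mitosis list had 6 of 8, led by Plk1 (at least 8.62-fold) (median -1.48), with sums over 10 genes of 973 and 197. The part of dividing cells in the pore values was not tested. Tfap2b, a marker of periocular mesenchyme (209 and 36.2), and Sfrp2, listed for retina (1256 and 140), also lay in this direction, each the only measured gene of its list, and their part was not tested.

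**Figure D2:**
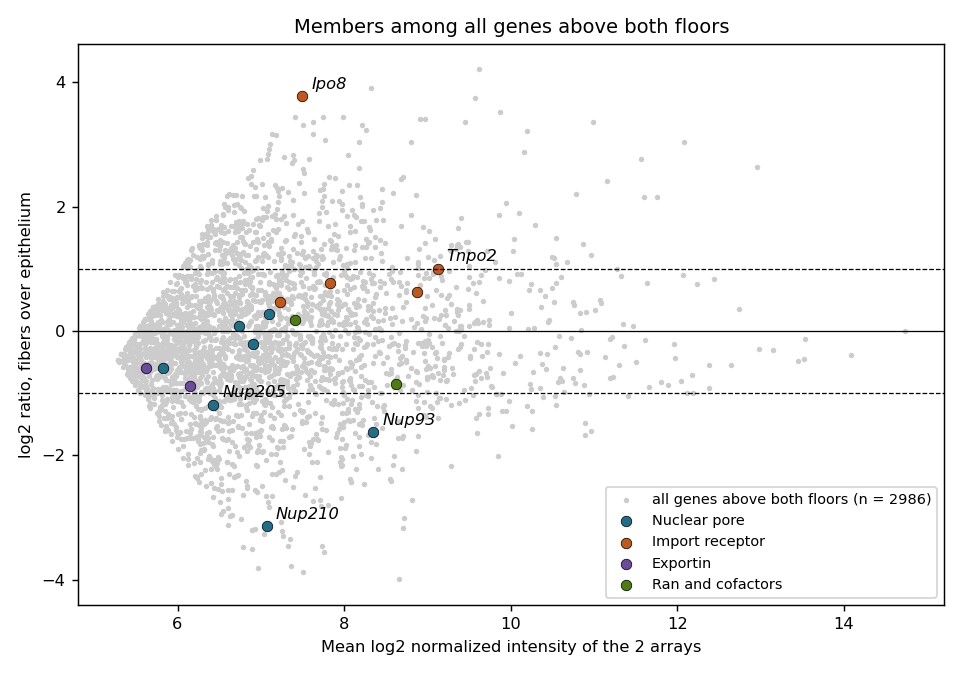
The log2 ratio of fibers over epithelium against the mean log2 intensity of the 2 arrays for all 2986 genes above both floors (grey) and the 16 members among them (coloured by role). Dashed lines mark 2-fold. Ipo8 at 3.78 lies at the upper edge of all genes and Nup210 at -3.14 near the lower edge, while most members lie between the dashed lines.

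Among the import receptors, differences of 2-fold or more lay toward fibers by the brightest probe of each gene. A second probe of Ipo5, given below, passed 2-fold toward epithelium. Ipo8, an importin of the beta family that also binds Argonaute proteins, read 48.8 in epithelium and 672 in fibers, 13.8-fold higher in fibers (log2 ratio 3.78). Of the 2986 genes above both floors, 2 had a higher ratio, and it ranked between the crystallins Crybb1 and Crygc. Like Nup210, it lay outside the range of the silent probes, and the ratios of Nup93, Nup205 and Tnpo2 lay inside it. It rests on 1 probe, and the epithelium value stood just above the floor of 44.6. Against the 99th percentile floor, Ipo8 was at least 6.08-fold higher in fibers. Ipo7, its closest relative and the carrier of ribosomal proteins and signalling factors, read 43.7 and 46.4, at least 1.04-fold higher in fibers.

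Tnpo2, a transportin that imports RNA-binding proteins, read 394 in epithelium and 790 in fibers (2.01-fold, log2 ratio 1.01). Its brightest probe carries a GenBank cDNA accession. The second brightest carries a RefSeq accession and read 47.7 and 43.3, a log2 ratio of -0.14, so the direction of Tnpo2 depended on the probe. Scaled to housekeeping genes, the brightest probe gave 0.53. Tnpo1, the paralogue with the same kind of cargo, read 24.0 and 51.2 (a bound of 1.15-fold toward fibers), and Tnpo3, the importer of serine-arginine splicing factors, read 2.88 and 53.3 (at least 1.20-fold).

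Among the importin alphas, the adaptors that recognise the classical nuclear localisation signal, Kpna1 read 21.0 in epithelium and 115 in fibers, at least 2.58-fold higher in fibers. The bound was 1.86-fold when scaled to housekeeping genes. Kpna3 read 174 and 298 (log2 ratio 0.78), and Kpna4, its close paralogue, read 21.0 and 47.4 (at least 1.06-fold higher in fibers). Kpna2, Kpna6 and Kpna7 were below both floors. Kpnb1, the importin beta that carries these adaptors through the pore, read 128 and 177 (0.46, and -0.01 when scaled to housekeeping genes).

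Ipo5, an importer of histones and ribosomal proteins, read 379 in epithelium and 583 in fibers (log2 ratio 0.62). A second Ipo5 probe, with a GenBank cDNA accession, read 154 and 24.1, at least 4.78-fold higher in epithelium. The 2 Ipo5 probes therefore went in opposite directions. Ipo9, another histone importer, read 26.9 and 52.2 (a bound of 1.17-fold toward fibers), and Ipo13, which moves cargo both ways, read 36.8 and 35.2, with no direction. Ipo4 and Ranbp6 were below both floors, and Ipo11 had no named probe.

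In all, 12 of 17 import receptors were measured. At 2-fold, by the brightest probe of each gene, 3 favoured fibers and none epithelium (25% and 0%, median log2 ratio 0.36). The background over all measured genes was 15.5% and 18.5%, so a count of 3 is too small to set the group apart from it. All 5 above both floors had positive ratios, except that Kpnb1 turned negative when scaled to housekeeping genes. Of the 7 above the fibers floor only, 6 had no direction or a bound of at most 1.20-fold. Scaled to housekeeping genes, Ipo8 alone remained at 2-fold and the median was 0.00. Fiber markers lay in the same direction, with summed intensities over 10 genes of 7106 in epithelium and 54827 in fibers, and so did 7 of 9 measured housekeeping genes.

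**Figure D3:**
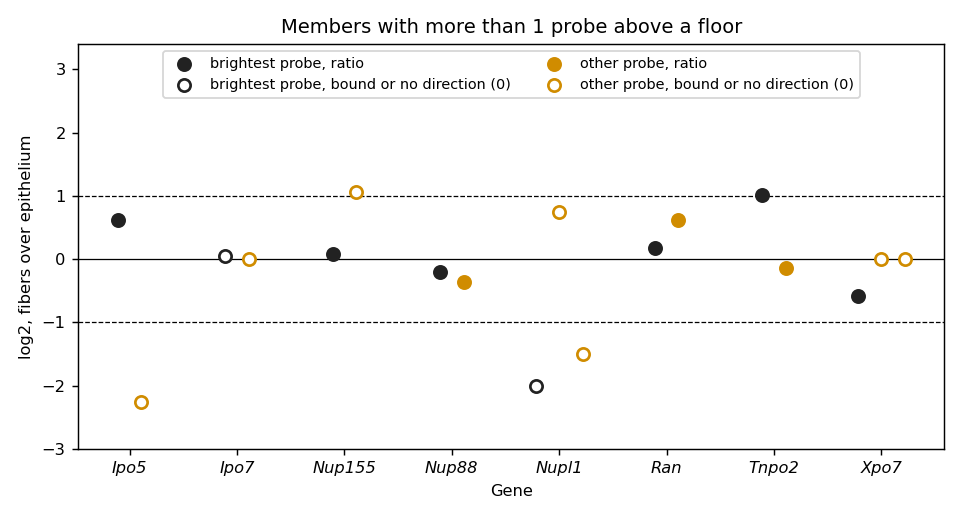
The log2 ratio or bound of each probe above a floor, for the 8 members with more than 1 such probe. Filled symbols are ratios and open symbols bounds or probes with no direction, drawn at 0. The probes of Ipo5 lie at 0.62 and -2.26 and those of Tnpo2 at 1.01 and -0.14, on opposite sides of 0.

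No measured exportin differed by 2-fold. Xpo1, the receptor for leucine-rich export signals, read 96.9 in epithelium and 52.2 in fibers (log2 ratio -0.89, 1.85-fold higher in epithelium). A second Xpo1 probe was below both floors. Xpo7, an exportin with broad cargo, read 60.5 and 40.3 (-0.59), while 2 other Xpo7 probes were above the fibers floor only, with no direction. Xpo6, the exporter of actin, read 22.0 and 36.2 and Xpot, the exporter of transfer RNA, 6.92 and 36.2, both with no direction. Cse1l, which returns importin alpha to the cytoplasm, Xpo4, Xpo5 and Ranbp17 were below both floors. Of the 4 measured exportins, 2 (Xpo1 and Xpo7) were at 2-fold in epithelium when scaled to housekeeping genes. Under that scaling 34.1% of all measured genes were, so a count of 2 is too small to set the exportins apart.

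Ran itself read 160 in epithelium and 181 in fibers (log2 ratio 0.18), and a second probe gave 0.62. The first value was -0.30 when scaled to housekeeping genes. Ranbp1, the cofactor that helps release Ran from transport receptors, read 531 and 295 (-0.85, 1.80-fold higher in epithelium, and -1.32 when scaled to housekeeping genes). Ranbp3, a cofactor of Xpo1, read 26.9 and 37.1, with no direction. Ranbp3l was below both floors. Ranbp9 and Ranbp10, which are scaffold proteins despite the name, and Nup62cl were below both floors too.

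The Ran cycle and the pore also depend on genes with other names. Of 11 such genes with a probe, 10 were measured, and at 2-fold 2 favoured epithelium and 2 fibers (median log2 ratio -0.22). Rcc1, the chromatin-bound exchange factor that loads Ran with GTP, read 368 in epithelium and 124 in fibers (2.97-fold higher in epithelium). Rangap1, the activator of GTP hydrolysis by Ran at the cytoplasmic face, read 680 and 418 (-0.70), and a second probe gave -1.10. Ahctf1, the Y complex partner that seeds pores on chromatin, read 197 and 97.1 (2.03-fold higher in epithelium), and a second probe gave -0.52. The Y complex subunits Sec13, which also serves in vesicle coats, and Seh1l lay the other way. Sec13 read 2.88 and 137 (at least 3.08-fold toward fibers) and Seh1l 63.8 and 137 (2.16-fold), but a second Seh1l probe gave -0.14 and the third a bound of at least 1.48-fold toward epithelium. Of the others, Aaas, a pore protein, had a bound of at least 1.89-fold toward fibers and Rangrf, a Ran-binding protein, of at least 1.74-fold toward epithelium.

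Of 16 messenger RNA export genes with a probe, 8 were measured, and at 2-fold 2 favoured epithelium and 1 fibers (median log2 ratio -0.04). Alyref, the adaptor that loads the export receptor onto messenger RNA, read 536 in epithelium and 81.5 in fibers (6.57-fold higher in epithelium), but a second probe read 91.0 and 76.7 (-0.25). Ddx39b, the helicase that recruits Alyref, read 428 and 204 (2.09-fold higher in epithelium). Thoc5, a subunit of the THO complex, read 75.0 and 277 (3.70-fold higher in fibers). The export receptor Nxf1 read 57.7 and 54.4 (-0.09). Mcm3ap, a scaffold for export at the pore, had a bound of at least 1.70-fold toward fibers and Gle1, the activator of messenger RNA release, of at least 1.61-fold toward epithelium.

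The nuclear lamina and envelope, in which pores are anchored, leaned toward epithelium. Of 11 genes with a probe, 7 were measured, and at 2-fold 6 favoured epithelium and none fibers (median log2 ratio -1.95). These shares, 85.7% and 0%, compare with 18.5% and 15.5% of all measured genes. Lmnb1, the B-type lamin, read 323 in epithelium and 19.0 in fibers (at least 10.05-fold). Lmnb2, the other B-type lamin, read 434 and 161 (2.70-fold), and Lbr, the lamin B receptor, read 244 and 63.3 (3.86-fold). Sun2, an inner membrane protein that links the lamina to the cytoskeleton, read 236 and 6.08 (at least 7.34-fold), and its outer membrane partner Syne2 read 249 and 75.9 (3.27-fold). Tmpo, a lamina-associated protein, read 138 and 6.08 (at least 4.31-fold), but another of its probes had a bound of at least 1.40-fold toward fibers. The chromatin bridge Banf1 read 46.6 and 63.3 (0.44). Lmna, Emd, Sun1 and Syne1 were below both floors. The other probes of Lmnb1, Lmnb2 and Syne2 were below both floors, while a second probe of Lbr and of Sun2 lay at 2-fold or more toward epithelium. The 6 genes were at 2-fold or more under each of the 4 alternative scalings, with a background of 34.1% under housekeeping scaling. With the 99th percentile floor, and with the mean of all probes, 5 genes were.

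**Figure D4:**
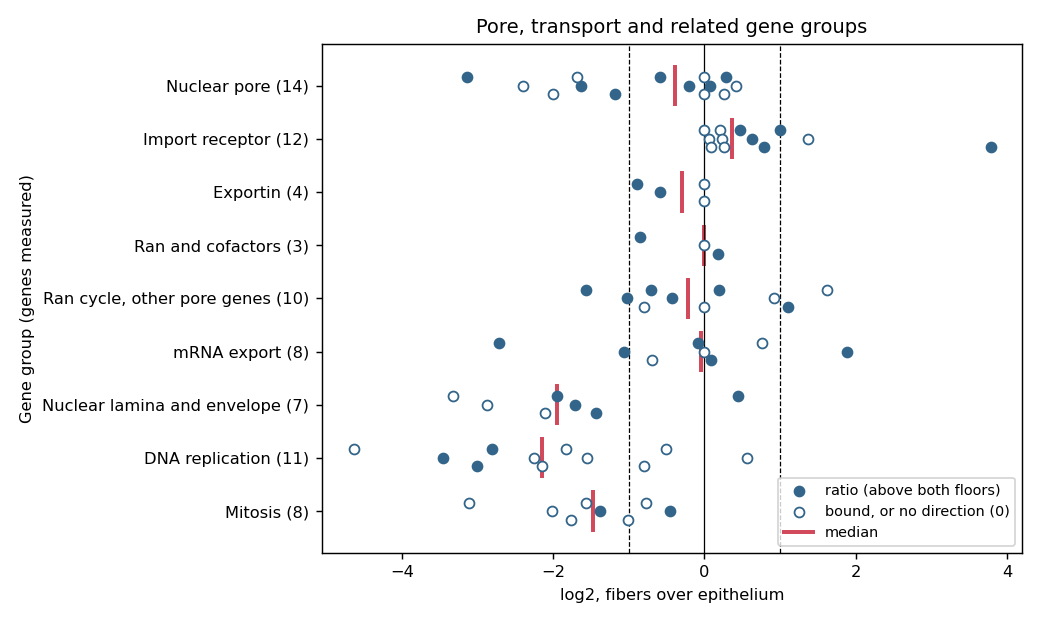
Log2 values of fibers over epithelium for the measured genes of each group, with the number measured in brackets. Filled circles are ratios, open circles are bounds or genes with no direction (drawn at 0), and red bars are medians. Pore genes spread mostly to the left of 0 (median -0.40), import receptors to the right (0.36), and lamina and envelope genes lie far to the left (-1.95), as do DNA replication (-2.15) and mitosis genes (-1.48).

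The 9 members at 2-fold or more differed in how far they depended on the processing. Ipo8, Nup210, Nup214 and Nup93 were at 2-fold or more in the same direction under all 8 alternatives that measured them, and Nup43 under all 7. Nup205 and Kpna1 were under 6 of 8, Nupl1 under 7 of 9 and Tnpo2 under 5 of 9. Not every alternative could change a value, so these counts overstate the support. For a gene with 1 probe the mean of all probes is that probe. A common floor leaves the ratio of a gene above it on both arrays unchanged. Of the 4 members at 2-fold under all 8, Ipo8 and Nup210 have 1 probe each, and the second probe of Nup93 and of Nup214 was below both floors. No member had measured probes at 2-fold or more in opposite directions.

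**Figure D5:**
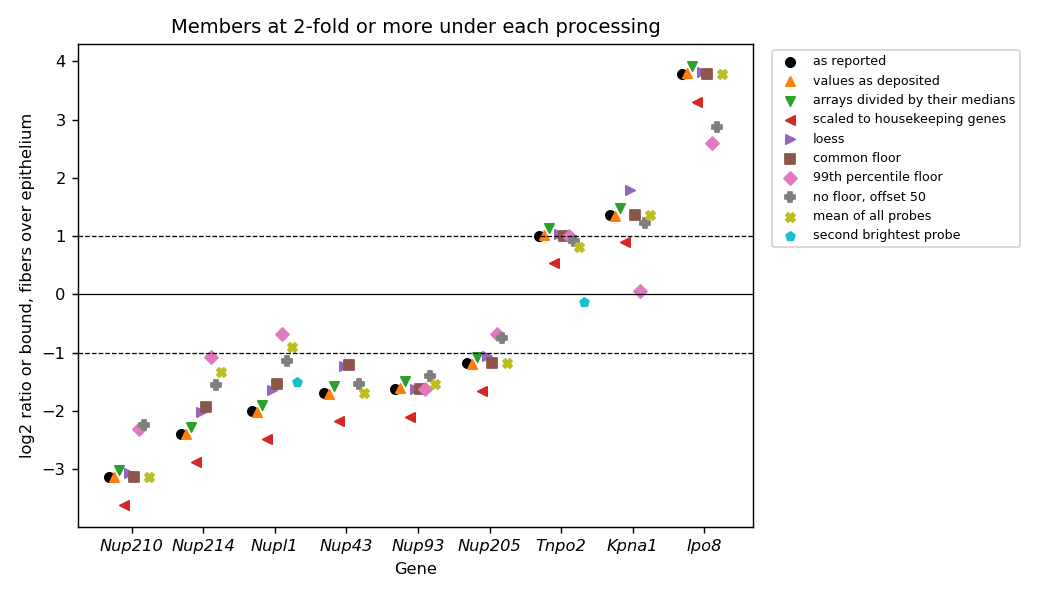
Log2 ratio or bound of the 9 members at 2-fold or more, as reported (black circles) and under each of 9 alternatives that change the values (coloured symbols). Dashed lines mark 2-fold. Ipo8 stays at 2.60 or above and Nup210 at -2.24 or below under all alternatives shown, while Tnpo2 crosses 0 with its second brightest probe, at -0.14.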

How the data were processed

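For 45281 probes the authors deposited an intensity per array on a linear scale, as whole numbers down to -16, so a background had been subtracted. The background method and any scaling are not stated in the labels. Per the labels, total RNA was biotin-labelled and hybridised to Illumina arrays. Quantile normalization was applied to the linear values, which hides any difference in total RNA. Platform annotation named 34885 probes with 1 gene, 18 had several genes and 10378 none. A gene was represented by the probe with the largest summed intensity of both arrays, a rule that favours probes that also bind other transcripts. All 56 members had a gene ID in the reference gene table. Groups follow the sample titles. Every member is named. Of the pathway lists, genes at 2-fold or more and up to 4 others are named, and of the marker lists up to 4 genes, besides those measured for other cell types. Members and lists were chosen with earlier results of these data known. In all, 11 alternatives were tried (scaling, floor, probe and fold). The functions were tested on simulated data. Python 3.11.15, pandas 2.3.3 and statsmodels 0.14.6 were used. Promoter sequences are from RefSeq (GRCm38.p6).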

Additional observations from a re-analysis of the deposited data

How the results depend on the processing

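The counts of members at 2-fold, 6 in epithelium and 3 in fibers, were the same with values as deposited, arrays divided by their medians, loess and a common floor. Scaling to housekeeping genes gave 10 in epithelium and 1 in fibers. The 99th percentile floor gave 3 in epithelium and 2 in fibers, and the second brightest probe, available for 8 measured members, 2 and 1. A threshold of 1.5-fold gave 10 in epithelium and 5 in fibers, and 3-fold gave 5 and 1. No floor and the mean of all probes each gave 5 in epithelium and 2 in fibers. The median over measured members, 0.00, ran from -0.07 to 0.20, but genes with no direction enter it as 0, so this says little about stability. Over members above both floors the median was -0.06 as reported, -0.54 after housekeeping scaling and 0.28 with the 99th percentile floor. With the second brightest probe, Tnpo2 turned to -0.14 and Ipo5, from 0.62, to -2.26. Kpnb1 (-0.01), Nup155 (-0.40), Pom121 (-0.19) and Ran (-0.30) turned negative after housekeeping scaling. Among values of single members under the 9 alternatives that change the values, 226 moved by less than the SD per probe of 0.72, those 4 included. Another 13 moved by more, Ipo5 with its second brightest probe included. Only a change of sign in a member at 2-fold or more as reported was counted as reversed. That was 1 value, Tnpo2 with the second brightest probe. Values that became not measured under an alternative were not counted. The median of all genes above both floors was -0.19, -0.67 after housekeeping scaling, -0.07 after median scaling and 0.06 after loess. The cause of these shifts was not tested. Signal near the floor limits the depth of every bound, and 27 of 56 members rest on 1 probe. No paired analysis was possible because each tissue has 1 array.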
